A study of Mus musculus with 4 samples.

Results

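Cadherins, protocadherins, Fat and Celsr genes were followed in RNA bound by YTHDF2 in the newborn mouse retina. The members are all genes of the deposited count table whose symbol begins with Cdh and a number or with Pcdh, together with Fat1 to Fat4 and Celsr1 to Celsr3. This gave 100 genes of 52550, under 99 symbols, because Pcdha11 stands under 2 identifiers. Retinas of wild-type C57BL/6 mice at postnatal day 0 were dissociated with papain, and RNA was taken before (input) and after an immunoprecipitation with an antibody to YTHDF2 (RIP), in 2 replicates each. The 4 libraries thus share strain, genotype, age and tissue and differ by the pulldown, and pulldown with a control antibody was not analysed here. The study describes the RIP replicates as biological, and how many animals went into each library is not given in the sources used here. The comparison of RIP with input asks which transcripts the pulldown holds at a higher share than the starting RNA.

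YTHDF2 is a cytoplasmic protein that reads N6-methyladenosine (m6A) in mRNA and promotes the decay of the transcripts it binds. Cadherins are membrane proteins that hold cells together through calcium-bound extracellular repeats. Classical cadherins link the membrane to actin through catenins, clustered protocadherins give single neurons a surface identity that lets their dendrites recognise each other, and the giant Fat and Celsr cadherins act in planar cell polarity and tissue growth. In the retina, members of these families are known for lamination, dendrite self-avoidance and the targeting of amacrine and ganglion cell processes. m6A itself was not measured in these files, and a higher share in the pulldown does not say where on a transcript YTHDF2 lay.

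The inputs held 39499994 and 36236531 counts, and the RIP libraries held 19530226 and 24903212. The ribosomal RNA loci CT010467.1 and AY036118 took 55.0% to 55.5% of the counts in the inputs and 85.3% to 87.8% in RIP, and protein-coding genes took between 8.37% and 11.5% in the 4 libraries. The members' summed counts were 8609 and 9319 in input RNA and 13377 and 11638 in RIP, so that the single members are measured on far fewer counts than the totals. Levels are given as CPM, counts scaled to library sizes that were adjusted by TMM, and a fold change is RIP over input from edgeR's quasi-likelihood test fitted to all genes. Enriched means a log2 fold change of 1 or more together with an unadjusted p below 0.05, and depleted means -1 or less with the same p limit. With 2 libraries a group, an exact permutation test of a single gene cannot go below a two-sided p of 0.333, so the p-values given rest on the spread shared across genes.

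The members took a higher share of the RNA in the pulldown than in the input. Their summed level was 258 and 272 CPM in the inputs and 530 and 484 CPM in RIP, so both RIP libraries lay above both inputs. Of the 75 members with enough counts to be tested, 22 were called enriched, against 9.43% of all tested genes, and 0 were called depleted, against 17.2%. At an adjusted p below 0.05, 8 members were higher in RIP, beside 3.48% of all genes, and 0 were lower, beside 9.78%. The 8 include Pcdh20, which had no counts in the inputs and was tested only because of its RIP counts. No tested member was lower at an unadjusted p below 0.05 in edgeR, and DESeq2 called 0 members depleted. In 49 tested members both RIP libraries lay above both inputs, where 29.6% of all genes did so, and in 1 member both lay below, where 31.3% did. The median log2 fold change was 0.81 for the tested members and -0.05 for all tested genes, and 67 of the 75 were above 0. The members' median was 1.02 without input replicate 1, 1.04 without input replicate 2, 0.99 without RIP replicate 1 and 0.94 without RIP replicate 2. That of all tested genes under the same fits was -0.0058, 0.0073, -0.0199 and -0.0253. These fits tested 80, 81, 79 and 83 members in that order. Calls of single members changed with the library left out, as given below. Within replicate 1 and within replicate 2 the median log2 ratio of the members was 0.90 and 0.99.

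Which members could be tested depended on their counts. The other 25 members fell under the filter on low counts, 6 of them with 0 counts in all 4 libraries (Cdh17, Cdh19, Fat2, Pcdh12, Pcdhb1 and Pcdhb21). Of the tested members, 47 reached the count cutoff in every library, 14 of them called enriched, and 10 reached it only in both RIP libraries, 5 of them called enriched. Over the 65 tested members without those 10, 17 were enriched, or 26.2%. The 9.43% of all tested genes was not reduced in the same way. None reached it only in both inputs, so the tested members are in part chosen by a high RIP value. Of the 22 enriched members, 17 had more than 3 counts in each input. In bulk RNA such as this, fewer cells of a type and less RNA per cell cannot be told apart, and a low level here may be either.

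**Figure D1:**
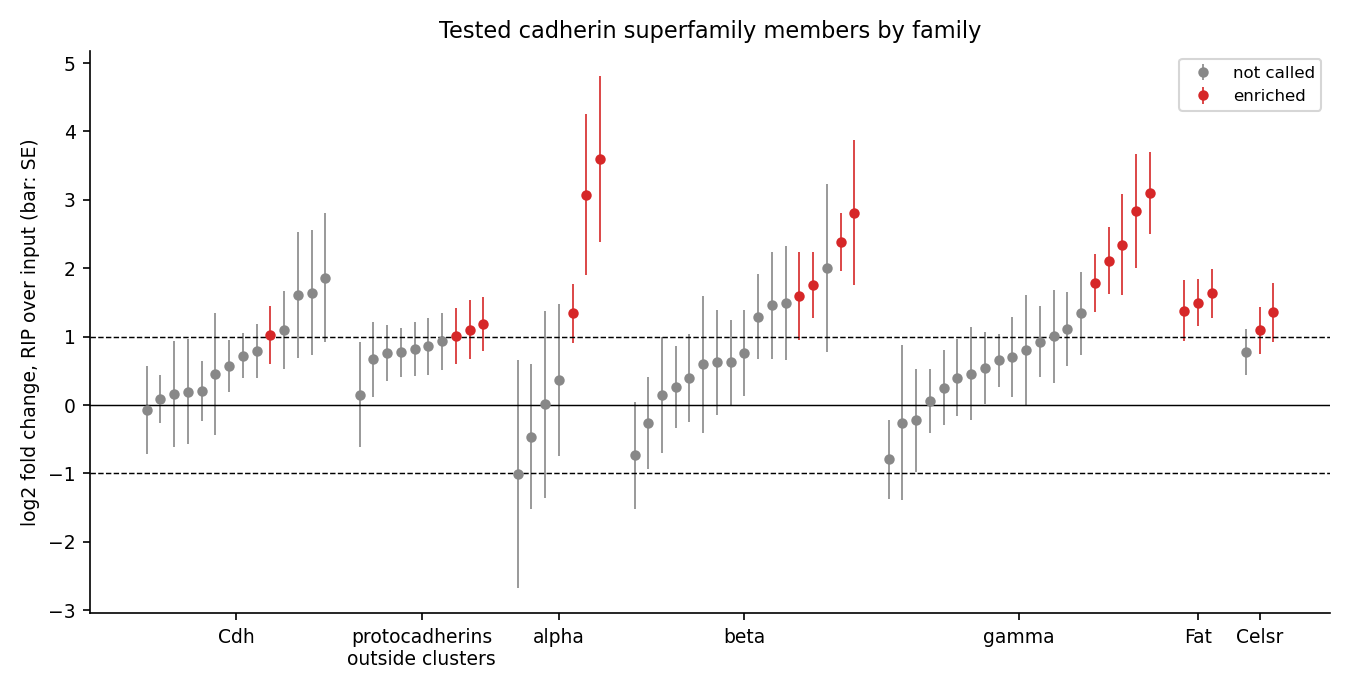
Log2 fold change (RIP over input, vertical axis) of 74 tested members, ordered by value within each family, with bars of 1 standard error and dashed lines at 1 and -1. Red points are called enriched. Pcdh20, whose inputs were both at 0 counts, is left out. All 3 tested Fat genes lie above 1, and the alpha, beta and gamma protocadherins each spread from below 0 to above 2.

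The Fat genes, which encode giant atypical cadherins, were all high in the pulldown. Fat1 is on chromosome 8 at 44935447 to 45052257, Fat3 on chromosome 9 at 15910189 to 16501285 and Fat4 on chromosome 3 at 38886940 to 39011985 (GRCm38). Fat1, which controls cell polarity and actin at contacts, was at 38.3 and 30.4 CPM in the inputs and 104 and 89.7 CPM in RIP. Fat4, the mammalian relative of Drosophila Fat that pairs with Dachsous, was at 8.79 and 13.3 CPM in the inputs and 34.4 and 34.1 CPM in RIP. Fat3, known for shaping amacrine cell dendrites, was at 12 and 27.8 CPM in the inputs and 54.6 and 49.0 CPM in RIP. In each of the 3 genes both RIP libraries lay above both inputs, and the RIP libraries lay closer to each other than the inputs did in Fat3 and Fat4. The log2 fold changes were 1.5 ± 0.34 (SE) for Fat1, 1.63 ± 0.36 for Fat4 and 1.38 ± 0.44 for Fat3. All 3 were called enriched, beside 9.43% of all tested genes, with adjusted p of 0.0256, 0.022 and 0.0744 in edgeR. Fat2, the fourth gene of the family, had no counts.

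The Fat calls depended on whether GC and length trends, removed together, were kept in the data. After removal of GC and length trends from every library, the log2 fold changes were 0.54 for Fat1, 0.77 for Fat4 and 0.70 for Fat3, and none was called. The Fat3 call was also lost without input replicate 1 (0.90) and without RIP replicate 1 (1.37), while a block on the replicate number brought its adjusted p in edgeR to 0.0309.

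The Celsr genes encode seven-pass cadherins of the core planar polarity pathway, and all 3 had a positive fold change. Celsr1 lies on chromosome 15 at 85898929 to 86033777, Celsr2 on chromosome 3 at 108390851 to 108415552 and Celsr3 on chromosome 9 at 108826320 to 108852969 (GRCm38). Celsr2 was the most abundant, at 28.3 and 20.9 CPM in the inputs and 42.0 and 42.3 CPM in RIP. Celsr3, which guides axon tracts, was at 6.45 and 5.28 CPM in the inputs and 12.7 and 12.3 CPM in RIP. Celsr1 was the lowest, at 1.95 and 1.19 CPM in the inputs and 3.69 and 4.37 CPM in RIP. The RIP libraries lay above the inputs in all 3 genes. Celsr1 (log2 fold change 1.35 ± 0.43, SE) and Celsr3 (1.09 ± 0.34) were called enriched with edgeR adjusted p of 0.0745 and 0.0698, and Celsr2 (0.78 ± 0.34, adjusted p 0.168) was under the fold limit. After removal of the GC and length trends, Celsr1 was at 0.16, Celsr2 at -0.41 and Celsr3 at -0.07. Celsr1 lost its call without RIP replicate 2 (1.33), Celsr3 without input replicate 2 (0.95), RIP replicate 1 (1.17) or RIP replicate 2 (1.21), and Celsr2 gained one without input replicate 1 (1.01). A block on the replicate number brought Celsr1 to an adjusted p of 0.0486 in edgeR.

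Transcripts of these 2 families are among the longest of the members, and the letters in which m6A is most often found, GGACT, occur many times in each. In the longest annotated transcript, read on its sense strand, GGACT stood 13 times in Fat1, 23 times in Fat3, 23 times in Fat4, 24 times in Celsr1, 16 times in Celsr2 and 26 times in Celsr3. The match is no mark of these genes, since 93.9% of tested protein-coding transcripts hold it at least once. The windows below show the last GGACT before the stop codon whose whole window lay in the coding sequence and in a single exon. This region was chosen because m6A is known to gather near stop codons. The windows are given for the 5 enriched genes and for Celsr2, which was not called. They are from GENCODE M21 transcripts on GRCm38, 5′ to 3′ on the transcript's strand, with GGACT in capitals and 10 bases on each side.
Fat1: ccccaccagaGGACTtccctgcacc
Fat3: cactgcctgaGGACTtccctgacca
Fat4: tcctcccgtgGGACTctccatagag
Celsr1: ctggctgctgGGACTgctggcggtc
Celsr2: cggtggatgaGGACTcctctggctc
Celsr3: ctcggcccctGGACTctttatctag
The windows lie at chr8:45050952-45050976 on the plus strand in exon 27 (Fat1), chr9:15915384-15915408 on the minus strand in exon 26 (Fat3), chr3:39010248-39010272 on the plus strand in exon 17 (Fat4), chr15:85903980-85904004 on the minus strand in exon 28 (Celsr1), chr3:108393014-108393038 on the minus strand in exon 33 (Celsr2) and chr9:108849139-108849163 on the plus strand in exon 35 (Celsr3). Their distance to the stop codon was 440 bases in Fat1, 392 in Fat3, 577 in Fat4, 1042 in Celsr1, 38 in Celsr2 and 347 in Celsr3. Among these 6 windows, that of Celsr2, which was not called, lies nearest to its stop codon. GGACT outside the coding sequence was left out, so a site nearer to a stop codon may exist in any of the genes. A match shows only that these letters are present.

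**Figure D2:**
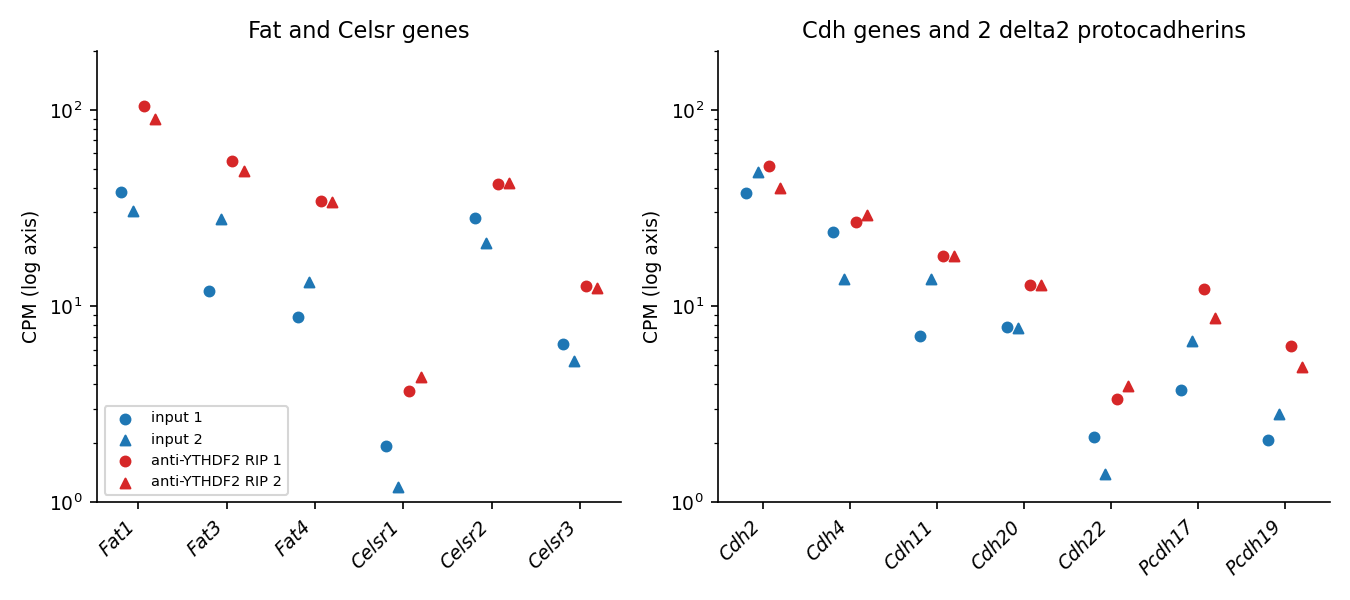
CPM (log axis) of each library for the tested Fat and Celsr genes (left) and for 5 Cdh genes and 2 delta2 protocadherins (right), blue for inputs and red for RIP, circles for replicate 1 and triangles for replicate 2. The red points lie above the blue points in every gene shown except Cdh2, whose libraries overlap between 37.6 and 51.7 CPM.

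The Cdh genes, which include the classical cadherins, held 1 enriched gene of 14 tested, 7.14% beside 9.43% of all tested genes. Of 23 Cdh genes 14 were tested, 0 were depleted, and 0 passed an adjusted p of 0.05 in edgeR, where 1 was higher at an unadjusted p below 0.05 and DESeq2 called 0 enriched, and their median log2 fold change was 0.65. Cdh2, N-cadherin of neuroepithelial junctions, was at 37.6 and 48.4 CPM in the inputs and 51.7 and 39.8 CPM in RIP. The groups overlapped, and its log2 fold change of 0.09 ± 0.35 (SE) had an adjusted p of 0.89 in edgeR. Cdh4, R-cadherin of the retina, was at 23.8 and 13.7 CPM in the inputs and 26.7 and 29.1 CPM in RIP (0.57 ± 0.38). Cdh11, a type II cadherin, was at 7.05 and 13.7 CPM in the inputs and 18 and 18 CPM in RIP (0.79 ± 0.40). Cdh20, also of type II, was at 7.86 and 7.72 CPM in the inputs and 12.8 and 12.9 CPM in RIP (0.72 ± 0.33). In these 3 genes the RIP libraries lay above the inputs, but none was called. Without 1 library 2 of them were called, Cdh4 at 1.02 without input replicate 1 and Cdh11 at 1.34 without input replicate 2.

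Cdh22, a type II cadherin of brain, was the enriched Cdh gene, at 2.16 and 1.40 CPM in the inputs and 3.37 and 3.91 CPM in RIP. Its log2 fold change was 1.03 ± 0.42 (SE) with an edgeR adjusted p of 0.145. The call was lost without input replicate 2 (0.74), without RIP replicate 1 (1.24), without RIP replicate 2 (1.02) and after removal of the GC and length trends (0.28). The largest fitted fold change of a Cdh gene, chosen after the values were seen, was that of Cdh18 (log2 1.86 ± 0.94, edgeR adjusted p 0.222), which had input counts of 7 and 3 and RIP counts of 9 and 18. Cdh5, VE-cadherin of blood vessels, was not tested, its counts being 7 and 6 in the inputs and 3 and 7 in RIP.

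Protocadherins outside the clusters had fold changes of a single sign. All 11 tested genes of 12 had a positive log2 fold change, with a median of 0.86. The median stays the same with Pcdh20 at the floor-based value given below. Of the 11, 4 were called enriched, 36.4% beside 9.43% of all tested genes. Pcdh17, a delta2 protocadherin that acts in axon extension and synapse assembly, was at 3.75 and 6.62 CPM in the inputs and 12.2 and 8.73 CPM in RIP. Pcdh19, another delta2 gene, was at 2.07 and 2.83 CPM in the inputs and 6.26 and 4.91 CPM in RIP. Pcdh1, of the delta1 group, was at 3.54 and 1.89 CPM in the inputs and 5.51 and 6.15 CPM in RIP. In all 3 the RIP libraries lay above the inputs, and the log2 fold changes were 1.01 ± 0.41 (SE) for Pcdh17, 1.19 ± 0.40 for Pcdh19 and 1.10 ± 0.43 for Pcdh1. Their edgeR adjusted p were 0.14, 0.085 and 0.129. After removal of the GC and length trends they were at 0.27, 0.35 and 0.09, and none was called. The calls were lost without input replicate 1 for Pcdh17 (0.66) and Pcdh19 (0.98), without input replicate 2 for Pcdh1 (0.71), without RIP replicate 1 for all 3 (0.83, 1.09 and 1.30) and without RIP replicate 2 for Pcdh17 (1.30) and Pcdh1 (1.13).

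Pcdh20 had 0 counts in both inputs and 8 and 9 counts in RIP, so it reached the count cutoff only in RIP. With 3 counts in each input as a floor, its mean RIP level was 3.90-fold higher (1.96 on the log2 scale). That value leaves out the counting error of the few RIP counts. Its edgeR adjusted p was 0.0488, or 0.067 with a block on the replicate number. Both describe a gene that was tested only because of its RIP counts. Pcdh10, also of the delta2 group, was at 5.19 and 7.20 CPM in the inputs and 11.3 and 9.85 CPM in RIP (log2 fold change 0.77 ± 0.36, SE). Pcdh7, of the delta1 group, was at 2.52 and 3.99 CPM in the inputs and 5.99 and 5.07 CPM in RIP (0.76 ± 0.40). In Pcdh10 and Pcdh7 RIP lay above input, while in Pcdh15, a protocadherin of hair cell and photoreceptor links, the groups overlapped, with inputs at 2.01 and 6.88 CPM and RIP at 7.89 and 6.24 CPM (0.67 ± 0.55). None of these 3 was called, and without input replicate 2 each was, at 1.02 for Pcdh10, 1.13 for Pcdh7 and 1.80 for Pcdh15.

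The clustered protocadherins lie in 3 neighbouring groups of genes on chromosome 18, alpha, beta and gamma, in which many variable first exons are joined, in alpha and gamma, to constant exons that all genes of the group share. They made up 58 of the members, of which 44 were tested, with a median log2 fold change of 0.73. Of these 12 were called enriched, or 27.3%, beside 9.43% of all tested genes. How the authors assigned reads on shared exons is not given in the sources used here. The level of a single alpha or gamma gene is therefore uncertain, and the sum over each group was tested as well. Apart from Pcdhgc3, no clustered gene exceeded 5.55 CPM in any library.

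Summed over the genes of a group, the alpha protocadherins stood at 3.33 and 4.46 CPM in the inputs and 9.55 and 8.02 CPM in RIP. The beta protocadherins stood at 8.79 and 10.3 CPM in the inputs and 22.1 and 22.4 CPM in RIP. The gamma protocadherins stood at 39.2 and 29.6 CPM in the inputs and 63.9 and 55.1 CPM in RIP. In each group both RIP libraries lay above both inputs. Tested as 1 feature each, an alternative added after the values were seen, the log2 fold changes were 1.18 ± 0.37 (SE) for alpha, 1.22 ± 0.33 for beta and 0.79 ± 0.34 for gamma, with edgeR adjusted p of 0.072, 0.0443 and 0.163. Alpha and beta were called enriched and gamma was not. With a block on the replicate number the beta sum had an adjusted p of 0.0643 in edgeR and kept its call. The alpha call was lost without input replicate 1 (0.98), RIP replicate 1 (1.13) or RIP replicate 2 (1.37), the beta call without RIP replicate 2 (1.29), and gamma was called without input replicate 1 (1.01).

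Of 14 alpha genes 7 were tested, and 3 of these were called enriched, 42.9% beside 9.43% of all tested genes. Pcdhac2, a C-type gene found across neurons, was the most abundant, at 1.44 and 1.63 CPM in the inputs and 4.84 and 2.95 CPM in RIP. It had a log2 fold change of 1.34 ± 0.43 (SE) with an edgeR adjusted p of 0.0779, and was not called without RIP replicate 1 (1.03) or after removal of the GC and length trends (0.61). Pcdha2 had input counts of 0 and 4 and RIP counts of 11 and 26, and Pcdha4 had input counts of 0 and 6 and RIP counts of 15 and 23. Both genes were higher in both RIP libraries than in either input, on few counts, and both had reached the count cutoff only in RIP. Their log2 fold changes were 3.59 ± 1.21 and 3.08 ± 1.17, and their edgeR adjusted p were 0.087 and 0.121. Both lost the call without input replicate 1 (2.65 and 2.12) and without RIP replicate 2 (2.86 and 2.74), Pcdha4 also did so after removal of the GC and length trends (2.55), and a block brought Pcdha2 to an adjusted p of 0.0413 in edgeR. Pcdha12 showed how far replicates could part, its counts being 3 and 33 in the inputs and 29 and 5 in RIP (0.37 ± 1.11).

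Of 22 beta genes, which have no shared constant exon, 17 were tested. Of these 4 were called enriched, 23.5% beside 9.43% of all tested genes. At an adjusted p below 0.05 in edgeR 2 were higher, beside 3.48% of all tested genes. Pcdhb22 was at 0.75 and 0.933 CPM in the inputs and 4.52 and 4.28 CPM in RIP. Pcdhb16 was at 0.69 and 0.699 CPM in the inputs and 2.46 and 2.25 CPM in RIP. In both genes replicates lay close together and RIP lay well above input. The log2 fold changes were 2.38 ± 0.42 (SE) for Pcdhb22 and 1.75 ± 0.48 for Pcdhb16, with edgeR adjusted p of 0.00927 and 0.0475. Without 1 library Pcdhb22 ran from 2.23 to 2.54 and Pcdhb16 from 1.74 to 1.90. After removal of the GC and length trends they were at 1.74 and 1.32. Both calls, which rest on the unadjusted p, then held, with edgeR adjusted p of 0.0198 and 0.097. With log2(FPKM + 1) the values were 0.61 and 0.39, and neither was called. Pcdhb17 had input counts of 29 and 0 and RIP counts of 78 and 73 (2.81 ± 1.06, edgeR adjusted p 0.117), and a block on the replicate number gave it an adjusted p of 1.4e-05 in edgeR. It was not called after removal of the GC and length trends (2.25) or by DESeq2.

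Pcdhb12, chosen after its values were seen, had a larger fitted fold change than Pcdhb16 on fewer counts, with input counts of 9 and 0 and RIP counts of 12 and 15 (2.00 ± 1.23, edgeR adjusted p 0.313), and was not called, except without input replicate 1, which left the input at 0 counts. Pcdhb7, outside the naming rule and chosen after its values were seen, had input counts of 21 and 10 and RIP counts of 40 and 29 (1.59 ± 0.64, edgeR adjusted p 0.14). Its call was lost without input replicate 2 (1.14), RIP replicate 1 (1.5) or RIP replicate 2 (1.89). Pcdhb19, also among the more abundant, had input counts of 16 and 50 and RIP counts of 35 and 28 (0.39 ± 0.65), and its groups overlapped. The tested beta genes ran from -0.74 to 2.81 on the log2 scale with a median of 0.76.

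Of 22 gamma genes 20 were tested, and 5 were called enriched, 25% beside 9.43% of all tested genes. Of those 5, 3 had an adjusted p below 0.05 in edgeR, where 3.48% of all tested genes were higher. Pcdhga6 was at 0.21 and 0.495 CPM in the inputs and 3.81 and 2.33 CPM in RIP. Pcdhga7 was at 0.93 and 1.28 CPM in the inputs and 3.69 and 3.95 CPM in RIP. Pcdhgc4, a C-type gene that developing neurons need to survive, was at 1.08 and 0.583 CPM in the inputs and 4.16 and 3.04 CPM in RIP. In these genes every RIP library was above every input. Their log2 fold changes were 3.10 ± 0.60 (SE), 1.78 ± 0.43 and 2.11 ± 0.49, with edgeR adjusted p of 0.0132, 0.0292 and 0.0266. Without 1 library the log2 fold changes ran from 2.62 to 3.83, from 1.57 to 2.03 and from 1.73 to 2.62. After removal of the GC and length trends they were 2.48, 1.12 and 1.40. All 3 calls, which rest on the unadjusted p, then held, with edgeR adjusted p of 0.0332, 0.0945 and 0.0521. With log2(FPKM + 1) the values were 0.65, 0.56 and 0.57, and none was called.

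Pcdhga8 had input counts of 5 and 3 and RIP counts of 19 and 24 (2.84 ± 0.84, edgeR adjusted p 0.058). Pcdhga9 had input counts of 7 and 8 and RIP counts of 19 and 37 (2.35 ± 0.74, edgeR adjusted p 0.0708). Both rose in each RIP library, and both lost the call without RIP replicate 2 (2.73 and 1.83). By type, called were 4 of 11 tested Pcdhga, 0 of 6 Pcdhgb and 1 of 3 Pcdhgc genes, beside 9.43% of all tested genes. Pcdhga8 and Pcdhga9, among those called, had reached the count cutoff only in RIP. Of the Pcdhgb genes, 0 passed an unadjusted p below 0.05 in edgeR and 0 were called by DESeq2. The median log2 fold changes were 1.12, 0.43 and 0.81 in that order. The difference between the types was not tested.

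The most abundant gamma genes were not the enriched ones. Pcdhgc3 was at 14.2 and 7.87 CPM in the inputs and 15.5 and 19.3 CPM in RIP (0.66 ± 0.39), above both inputs in RIP but not called, except without input replicate 1 (1.15). Pcdhgb6 was at 3.84 and 1.37 CPM in the inputs and 5.55 and 4.37 CPM in RIP (0.93 ± 0.52). It was called with a block on the replicate number (1.08, edgeR adjusted p 0.135), as was Pcdhga11 (1.48), and without input replicate 1 (1.85). Pcdhga3 was at 4.56 and 2.07 CPM in the inputs and 3.29 and 3.62 CPM in RIP (0.06 ± 0.46), with overlapping groups. Pcdhgb4 had input counts of 19 and 186 and RIP counts of 119 and 7, so that each group held 1 high and 1 low library (-0.26 ± 1.13). It was called depleted without RIP replicate 1 (-3.31). Pcdhga10, which was not tested, had counts in RIP replicate 1 only, 122 of them. Pcdhgb4 and Pcdhga10 are among the genes that share constant exons, and the part of shared reads in these swings was not tested.

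**Figure D3:**
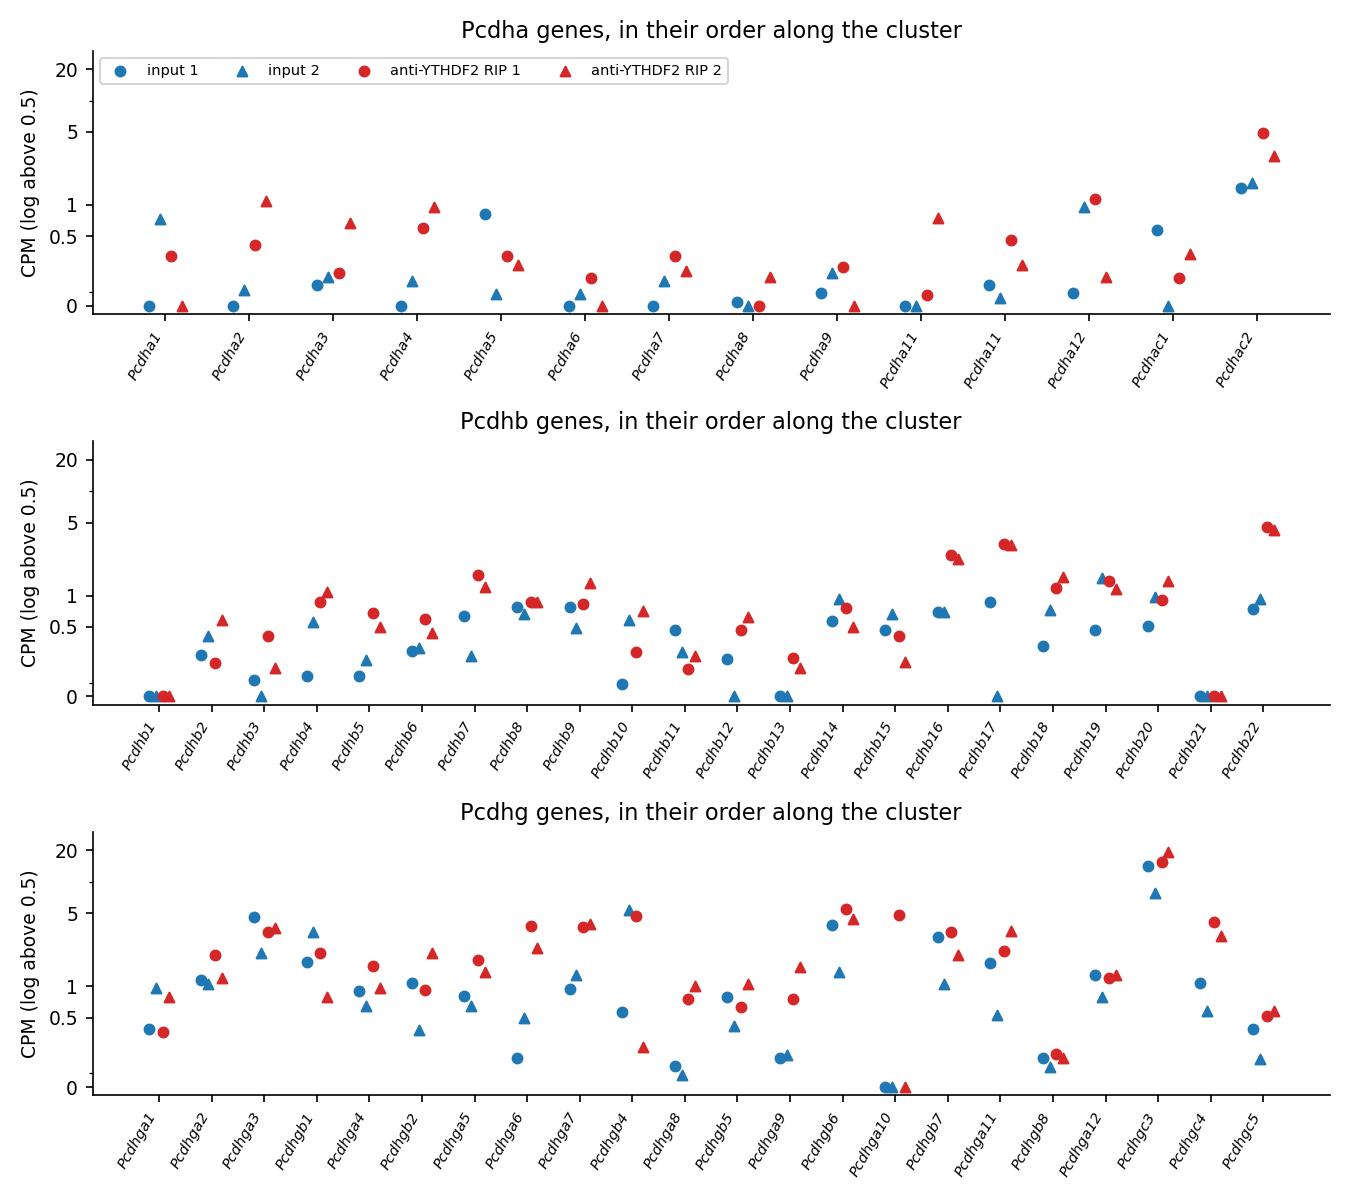
CPM of every clustered protocadherin in each library (linear up to 0.5, log above), in the genes' order along the alpha, beta and gamma groups, with blue for inputs, red for RIP, circles for replicate 1 and triangles for replicate 2. Pcdhb16, Pcdhb22, Pcdhga6, Pcdhga7 and Pcdhgc4 have red points well above blue ones, and in Pcdhgb4 the replicates cross.

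The spread between replicates was wider in the inputs than in RIP. In the 21 members that had 50 or more counts in all libraries, the median absolute log2 difference between replicates was 0.60 in the inputs and 0.19 in RIP, beside 0.57 and 0.19 over all genes. The inputs differed by more than 1 on the log2 scale in 3 of the 21 members and the RIP libraries in 0.

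Members are long, and long transcripts stood higher in the pulldown throughout. With tested protein-coding genes split into 4 length classes of about equal size, from shortest to longest the median log2 fold change was -0.79, -0.04, 0.24 and 0.49, and 2.31%, 6.72%, 12.2% and 19.9% were called enriched. Members fell into the upper 3 classes, with 11, 31 and 33 genes, of which 1, 7 and 14 were called. Their medians in these classes were 0.63, 0.86 and 0.81, each above that of protein-coding genes of the same class. The enriched members had a median transcript length of 5362 bases against 4713 for members not called and 3589 for all tested protein-coding genes. GGACT occurred at 1.06 per kb in enriched members and at 1.07 per kb in members not called, beside 1.03 per kb in all tested protein-coding genes.

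**Figure D4:**
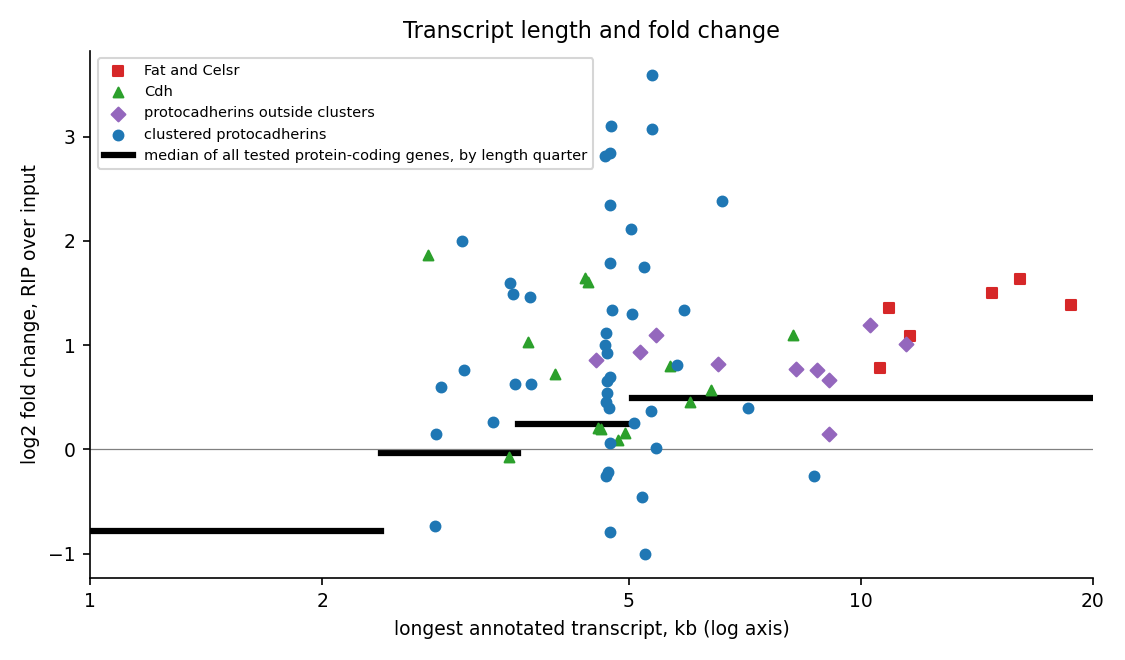
Log2 fold change (RIP over input) against the length of the longest annotated transcript in kb (log axis) for 74 tested members, with black bars for the median of all tested protein-coding genes in each of 4 length classes. The bars climb from -0.79 to 0.49, and the Fat and Celsr genes sit at the long end above the last bar.

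After removal of GC and length trends from every library, 9 members were called enriched, against 6.37% of all genes under the same setting, and 1, Pcdhgb1 (-1.52), was called depleted, against 14.8%. The 9 were Pcdh20, Pcdha2, Pcdhb16, Pcdhb22, Pcdhga6, Pcdhga7, Pcdhga8, Pcdhga9 and Pcdhgc4, all of them among the 22. Of these, Pcdh20, Pcdha2, Pcdhga8 and Pcdhga9 had reached the count cutoff only in RIP. Over the 65 tested members without the 10 of that kind the count was 5, or 7.69%. Genes of that kind were not taken out of the 6.37% of all genes, so these shares are of unlike sets. Lost were 13 members, namely Fat1, Fat3, Fat4, Celsr1, Celsr3, Cdh22, Pcdh1, Pcdh17, Pcdh19, Pcdha4, Pcdhac2, Pcdhb17 and Pcdhb7. In Pcdha4 (2.55), Pcdhb17 (2.25) and Pcdhb7 (1.38) the log2 fold change stayed above 1 and the p limit was missed, while the other 10 fell below 1. The median log2 fold change of the members was then 0.29, beside -0.17 for all genes. Whether length itself or a property that goes with it carries the difference was not tested.

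**Figure D5:**
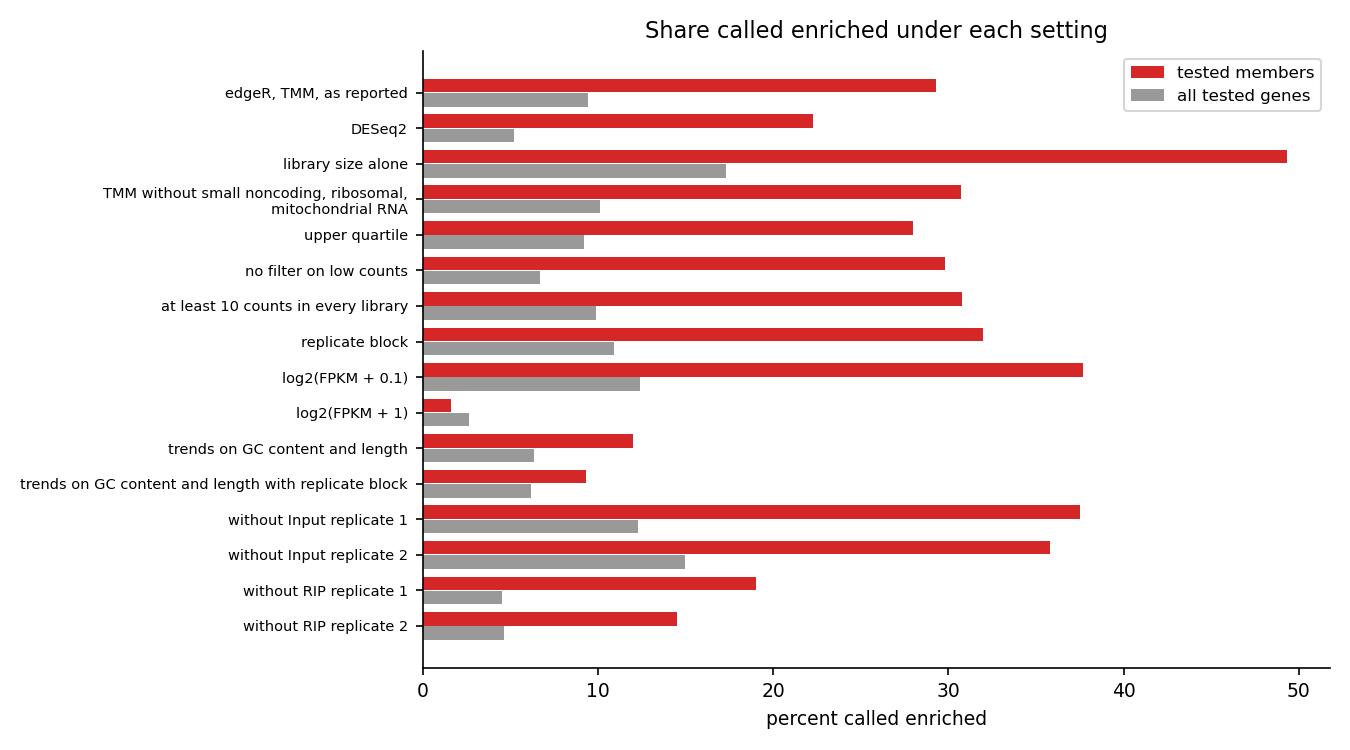
Percent called enriched among tested members (red) and among all tested genes (grey) under the reported fit and each alternative (rows). The red bar exceeds the grey bar in every setting but log2(FPKM + 1), where they are 1.64% and 2.66%.

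Per length, the most abundant member in the inputs was Cdh2, at 3.75 and 5.46 FPKM (fragments scaled to transcript length and library size). Cdh4 followed at 2.64 and 1.71 FPKM, Fat1 at 1.97 and 1.76 FPKM, Celsr2 at 1.97 and 1.65 FPKM, Pcdhgc3 at 2.08 and 1.29 FPKM and Cdh20 at 1.57 and 1.75 FPKM. Cdh2 lay above the other 5 in both inputs. Among those 5 every pair overlapped except Fat1 and Cdh20, where both Fat1 values lay above both Cdh20 values. The deposited FPKM divides several members, Cdh2 and Cdh11 among them, by longer gene models than their longest annotated transcripts. In input replicate 1 the lengths were 7261 bases against 6388 for Cdh4, 5510 against 4687 for Pcdhgc3 and 11533 against 10598 for Celsr2. Further apart were Pcdh10 (16040 against 8234) and Pcdh15 (24515 against 9104), while for Pcdh17 the model was shorter (9583 against 11451). Counts per length of the longest annotated transcripts and per library total gave a mean in the inputs of 8.01 in place of 4.61 for Cdh2. For Cdh11 the mean was 1.68 in place of 1.01. In these values both the length and the depth differ from those of the deposited FPKM. Fat3 (0.447 and 1.17 FPKM) and Fat4 (0.41 and 0.702 FPKM) were lower, and Celsr3 stood at 0.429 and 0.393 FPKM. By deposited FPKM, Fat1 in RIP stood at 7.93 and 5.09 FPKM beside Cdh2 at 7.64 and 4.39 FPKM, 2 genes whose values overlapped. There too Cdh2 was divided by the longer model, of about 8046 and 8047 bases against 4843. For Fat1 the lengths were 15645 and 15646 bases against 14814. The order in RIP per length of the longest transcripts was not worked out.

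Partners of these families, taken from 7 lists, moved in both directions. Of 97 listed genes 80 were tested, 13 were called enriched (16.2%, beside 9.43% of all genes) and 8 depleted (beside 17.2%), and their median log2 fold change was 0.21. Among 10 tested catenins and juxtamembrane partners, 1 was called, Ctnnb1 (beta-catenin, which binds classical cadherin tails), at 38.5 and 35.2 CPM in the inputs and 115 and 110 CPM in RIP (log2 fold change 1.61 ± 0.33, SE, edgeR adjusted p 0.0174). The alpha- and p120-catenin genes Ctnna1 (-0.07) and Ctnnd1 (-0.32) were not called. In the Fat and Dachsous pathway, 3 of 16 tested genes were enriched and 1 depleted. Dchs1, the Fat4 ligand, was at 14.7 and 10.1 CPM in the inputs and 37.0 and 40.5 CPM in RIP (1.65 ± 0.36, edgeR adjusted p 0.0206), so the ligand and its receptor both had RIP above input. Yap1 (1.13) and Lats2 (1.16), of the Hippo cascade, were enriched, and the transcriptional corepressor Atn1 was depleted (-1.63, edgeR adjusted p 0.0399).

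Of 15 tested planar cell polarity partners 4 were enriched, Prickle2 (1.56), Fzd3 (1.39), Ptk7 (1.04) and Ankrd6 (1.73), and 1, Dvl3, was depleted (-1.15). Fzd3 rested on inputs far apart, at 8.67 and 37.2 CPM, with RIP at 61.6 and 58.9 CPM, and was at 0.69 and not called without input replicate 1. Of 15 protocadherin effectors, Nckap1 (1.5), Ptk2 (1.33) and Map3k11 (1.01) were enriched, and Pdcd10 (-2.80) and Brk1 (-1.29) depleted. Nckap1 and Brk1 encode subunits of the same WAVE complex and moved in opposite directions in the reported fit. After removal of the GC and length trends Nckap1 was at 1.14, and Brk1 was at -0.15 and not called. Without 1 library, Nckap1 ran from 0.87 to 2.62 and Brk1 from -1.48 to -1.09. Of 12 genes for protocadherin promoter choice and chromatin, 0 were enriched in edgeR (0 were higher at an unadjusted p below 0.05, and DESeq2 called 1) and 3 were depleted, the cohesin genes Smc1a (-2.25) and Smc3 (-2.02) and the cohesin loader Nipbl (-1.55). In Smc1a the inputs were 5.40 and 22.8 CPM and RIP was 2.97 and 2.95 CPM. In Smc3 the inputs were 2.43 and 16.3 CPM and RIP was 2.77 and 1.83 CPM, and in Nipbl the inputs were 3.21 and 14.8 CPM and RIP was 2.62 and 3.53 CPM. Only in Smc1a did the groups not overlap, and all 3 calls rested on input replicate 2, without which the values were -0.87, -0.08 and -0.07. The median log2 ratio of the list was 0.38 in replicate 1 and -1.08 in replicate 2. Of 8 shedding and gamma-secretase genes, Aph1b was enriched (1.33) and Psenen depleted (-2.35), and of 6 tested genes among other cadherin superfamily genes Clstn3 (1.02) and Dchs1 were enriched. After removal of the GC and length trends Psenen was at -0.63 and not called. Under that setting 6 of the 8 depleted partner genes were still called. Of all genes, 6.37% were then called enriched and 14.8% depleted. Of the 21 called partner genes, 4 kept the call with each library left out in turn, Ctnnb1, Dchs1, Pdcd10 and Psenen, and after removal of the GC and length trends 3 enriched genes (Ctnnb1, Fzd3 and Nckap1) were still called, while Dchs1 was at 0.46.

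Marker lists of the retinal neurons and progenitors, with 6 to 10 tested genes each, held 0 enriched genes in edgeR, where 9.43% of all genes were enriched. In edgeR 2 photoreceptor precursor markers were higher at an unadjusted p below 0.05, and DESeq2 called 0 of these markers enriched. Of 10 tested retinal ganglion cell markers 2 were depleted, with a summed level of 66.3 and 73.0 CPM in the inputs and 31.1 and 30.3 CPM in RIP. Of 9 progenitor markers 3 were depleted, of 9 tested amacrine and horizontal cell markers 2, and of 6 tested photoreceptor precursor markers 0, where 17.2% of all genes were depleted. Vascular endothelial markers summed to 34.6 and 32.7 CPM in the inputs and 66.7 and 67.6 CPM in RIP. Nearly all of this was Kdr, which was called enriched, at 29.9 and 30.2 CPM in the inputs and 63.3 and 65.0 CPM in RIP, while 4 of the 10 endothelial markers, Tie1, Emcn, Esam and Erg, and the endothelial Pcdh12 were at 0 in all libraries. Pericyte markers summed to 1.43 to 2.28 CPM in the inputs and 4.28 to 4.45 in RIP, astrocyte markers to 1.53 to 2.36 and 3.62 to 4.20, microglial markers to 1.98 to 3.48 and 3.09 to 5.07, pigment epithelial markers to 0.321 to 0.930 and 0.540 to 0.595, and erythrocyte markers to 0.758 to 0.990 and 0.119 to 0.416. In each of the pericyte, microglial and astrocyte lists 1 marker was enriched, and 1 pericyte marker depleted. Of 8 lens markers 6 were at 0 in all libraries. The part of these markers in the members' fold changes was not tested.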

How the data were processed

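Gene-level counts and FPKM of 4 libraries were deposited by the authors. The submitters' processing notes name STAR 2.5, HTSeq and GRCm38, and settings and annotation are not given in the sources used here. The deposited counts are whole numbers but look like estimated counts: for 523 to 549 protein-coding genes per library with 1 annotated transcript and 1 to 20 counts, FPKM times length times depth, rounded up (tolerance 0.02), gave the count in 95.5% to 97.3%. They were used as deposited. The FPKM values, scaled by the authors for length and depth, served for levels per length and for limma. For gamma protocadherins the length implied by FPKM was 1.00 to 1.26 times the longest annotated transcript.

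The test was edgeR 4.0.16 in R 4.3.3 (filterByExpr with a minimum count of 10 and total of 15, TMM, glmQLFit, glmQLFTest), with Benjamini-Hochberg adjustment over 13632 tested genes. Standard errors came from the fold change and its F statistic. The fits were also run on simulated counts with known fold changes, a fixed spread shared by all genes and no trend on length. That run does not give the error rate in these data. Alternatives were DESeq2 1.42.0, other scalings and filters, limma 3.58.1 on log2(FPKM + 0.1) and log2(FPKM + 1) above a mean FPKM of 0.1, trends on GC content and length (mgcv 1.9.3, basis size 8), a replicate block and each library left out. The floor of 3 counts covers counting error in the inputs only. Transcript lengths, GC content and sites were read from the longest transcript of each gene in GENCODE M21 (GRCm38), where 52403 identifiers were found.

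The sample labels gave groups and replicate numbers. The series' design text puts an input and a pulldown in each replicate, so equal numbers mark a shared replicate. Across all tested genes, the difference between replicates 2 and 1 in the inputs and in RIP had a Spearman correlation of -0.0364 and a Pearson r of -0.0348. The text names every tested Fat and Celsr gene and, in each other family, the 4 tested members with the highest mean CPM, those with an adjusted p below 0.05 and the 3 largest called changes in each direction, and called partner genes. Members and lists were chosen with earlier results of these data known. No test was run over a list.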

Additional observations from a re-analysis of the deposited data

How the results depend on the processing

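The 22 enriched members became 37 under library size alone, 1 with log2(FPKM + 1), 9 with trends on GC content and length, 7 with those trends and a replicate block, and 12 features once the clustered protocadherins were summed to 1 feature per cluster, while a replicate block alone gave 24, and leaving out 1 library gave 12 (without RIP replicate 2) to 30 (without input replicate 1). Library size alone moved the median of all genes from -0.05 to 0.27. The share called enriched was 29.3% of 75 tested members in the reported fit, beside 9.43% of all genes. It was 49.3% beside 17.3% under library size alone, and 1.64% of 61 members beside 2.66% with log2(FPKM + 1). It was 12% beside 6.37% with the trends, 9.33% beside 6.2% with the trends and a block, and 32% beside 10.9% with a block. The 12 features came from 31 tested members outside the clusters and the cluster sums, not from 75 genes. The 8 members with an adjusted p below 0.05 became 16 under library size alone, 5 with no filter on low counts, 2 with the trends, 1 with the trends and a block, and 0 (without RIP replicate 1) to 25 (without input replicate 1) without 1 library. A replicate block gave 11. With that block Fat3, Celsr1, Pcdha2 and Pcdhb17 passed and Pcdh20 no longer did, as given above, and no other call of a named member was changed by it than that of Pcdhgb6. The depleted members were 1 with the trends and 0 to 1 without 1 library, with 1 each without input replicate 1 and without RIP replicate 1. The members' median minus that of other genes, 0.86, was 1.15 with DESeq2, 1.147 with no filter, 0.735 with at least 10 counts in every library, 0.79 with log2(FPKM + 0.1), 0.244 with log2(FPKM + 1), 0.467 with the trends, 0.472 with the trends and a block, and 0.973 to 1.035 without 1 library. The 13 enriched partner genes became 21 under library size alone, 6 with log2(FPKM + 1), 3 with the trends, 3 with the trends and a block and 3 to 17 without 1 library (3 and 6 without RIP replicates 1 and 2), and the 8 depleted ones 5 under library size alone, 4 with log2(FPKM + 0.1), 2 with log2(FPKM + 1) and 3 to 13 without 1 library (13 without input replicate 1, 4 and 3 without RIP replicates 1 and 2).

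Directions turned in single genes. With the trends, and with the trends and a replicate block, the log2 fold changes were -0.49 and -0.49 for Cdh2, -0.32 and -0.29 for Cdh4, -0.41 and -0.39 for Celsr2, -0.073 and -0.063 for Celsr3, -0.21 and -0.044 for Pcdha12, -0.52 and -0.47 for Pcdhga3, and -0.022 and -0.019 for Pcdhgc3. Pcdhga3 was at -0.0063 with at least 10 counts in every library, and Pcdhgb4 at 0.17 under library size alone and 0.014 with log2(FPKM + 1). Without 1 library, Cdh2 ran from -0.080 to 0.34, Pcdha12 from -1.28 to 2.85, Pcdhb19 from -0.19 to 1.40, Pcdhga3 from -0.41 to 0.74 and Pcdhgb4 from -3.31 to 2.12. The cause of these changes was not tested. Few counts per member, and 2 libraries a group, limit what can be told apart here.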
